A study of Mus musculus with 8 samples.

Results

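Lcn2, Serpina3n, Saa3, Hp and Cp encode secreted proteins of the acute-phase response, and Mt1 and Mt2 encode the metallothioneins. These 7 genes, found by their symbols among the 32285 genes listed in the files, were described in mouse hearts after transverse aortic constriction (TAC), with 1 spatial transcriptome (ST) section and 1 library of dissociated heart per condition (sham, and TAC-2w, TAC-4w and TAC-6w for 2, 4 and 6 weeks after surgery). The genes were grouped for their levels in these same sections, so their levels and ratios below are a description and no test was made of them.

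All mice were wild-type male C57BL/6J, 8 weeks old. The TAC mice had a suture tied around the aortic arch, and the sham mice had the same operation without the ligature. The labels give no time after surgery for sham. Constriction loads the ventricle with pressure through a mechanical block. All groups had an operation wound, but its age in sham is not known. Nothing in the labels names more than 1 heart behind a section or a library. Per the labels, the sham and TAC-2w sections share a batch, while the TAC-4w and the TAC-6w section each stand alone in theirs. Among the libraries, sham and TAC-6w share a batch and TAC-2w and TAC-4w stand alone. In either assay, TAC-4w and its batch cannot be told apart. Whether the libraries were made from nuclei, as labelled, or from cells, as in the study's methods, is unclear, and "cell" below stands for a barcode that was kept.

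The acute-phase response is a programme of secreted proteins that interleukin-6, interleukin-1 and related cytokines switch on in the liver and, for some of the genes, in other tissues. Its transcription runs largely through STAT3, C/EBP and NF-kappaB. Metallothioneins are small cysteine-rich proteins that bind zinc and copper, and their genes respond to metals through the factor MTF1 and also to glucocorticoids and oxidative stress. Several of these genes have a second source in blood, since lipocalin-2 and haptoglobin are stored in the granules of neutrophils.

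Lcn2 lies on chromosome 2 (GRCm38.p6, chr2:32384637-32387739, minus strand), Cp on chromosome 3 (chr3:19956933-20009750, plus strand), Saa3 on chromosome 7 (chr7:46711998-46719615, minus strand) and Serpina3n on chromosome 12 (chr12:104406646-104414334, plus strand). Hp, Mt1 and Mt2 lie on chromosome 8. Hp spans chr8:109575128-109579172. Mt2 (chr8:94172618-94173567) and Mt1 (chr8:94178883-94180327) are neighbours on the plus strand with 5315 bases between them. Both metallothionein genes were highest in the same section, and their upstream letters are shown with the core of the metal response element, the site read by MTF1, in capitals (TGCACNC or TGCGCNC on either strand). The Lcn2 window is shown for an NF-kappaB-like match (GGG, any 5 letters and CC, on either strand, in capitals). The sequences are from RefSeq on GRCm38.p6, 5′ to 3′ along each gene's strand. For Mt2 it is the 250 bases before the start (chr8:94172368-94172617, plus strand), for Lcn2 the 250 bases before the start (chr2:32387740-32387989, minus strand), and for Mt1 the last 30 bases before the start that the promoter table uses (chr8:94179059-94179088, plus strand), which lies inside the RefSeq span of the gene.
Mt2: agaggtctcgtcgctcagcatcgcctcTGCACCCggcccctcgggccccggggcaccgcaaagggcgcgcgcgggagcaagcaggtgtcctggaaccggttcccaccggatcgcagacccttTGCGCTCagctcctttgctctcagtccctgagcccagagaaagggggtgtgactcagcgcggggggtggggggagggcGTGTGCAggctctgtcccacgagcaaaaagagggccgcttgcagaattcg
Mt1: cccgctgTGCACACtggcgctccagggagc
Lcn2: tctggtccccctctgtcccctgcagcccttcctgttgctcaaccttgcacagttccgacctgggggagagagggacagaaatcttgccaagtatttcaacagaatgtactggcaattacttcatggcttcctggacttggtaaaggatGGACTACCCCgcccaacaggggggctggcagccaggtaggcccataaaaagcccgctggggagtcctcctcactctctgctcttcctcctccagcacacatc
The Mt2 window held 3 matches to the metal response element core, at 223 to 217, 128 to 122 and 50 to 44 bases before the start, the last on the opposite strand. The Mt1 window of the same length (chr8:94178839-94179088) held 1, at 23 to 17 bases before the start. This window runs into the RefSeq span of Mt1, whereas that of Mt2 ends before its gene, so their counts are not compared. The Saa3 window also lies inside the RefSeq span of its gene. Of 32851 promoters in the table, 21.4% held at least 1 such match and 1.26% held 3 or more. The NF-kappaB-like letters, at 102 to 93 bases before the Lcn2 start, are common, with a match in 45.8% of promoters. The same letters had 4 matches in the Serpina3n window and 3 in that of Mt1, some overlapping, and 1 in a Cp window. None of the windows of the 6 genes that matched the table held the STAT letters TTCNNNGAA, which 7.02% of promoters did. These are matches of letters in a short window and say nothing of binding.

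The sections held 1228 to 2193 spots and 25996378 to 48754396 unique molecular identifiers (UMIs), and a spot is a small region that can hold several cells. The median spot had 15488.5 UMIs in sham and 20203 to 27593 in the TAC sections, and mitochondrial transcripts took 51.5% of UMIs in sham and 42.2% to 44.2% in the others. After filters 5399 to 7965 cells were kept per library, with a median of 4449 to 10717 UMIs. Any pair of libraries shared 8 to 19 cell barcodes, at most 0.291% of the smaller library. All 6 cardiomyocyte markers were present in every section at 25047 to 34187 UMIs per 1000000 UMIs of the section (CPM) in sum. The libraries held few cardiomyocyte-like cells, 107, 74, 23 and 11 from sham to TAC-6w.

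Lcn2, the iron-siderophore carrier lipocalin-2, was low in 3 sections and high at TAC-4w. The sham section had 10.1 CPM (exact Poisson 95% interval 8.89 to 11.4). After 2 weeks of TAC the level was 3.96 CPM (3.42 to 4.56), after 4 weeks 55.9 CPM (53.4 to 58.6) and after 6 weeks 6.69 CPM (5.98 to 7.46). These intervals cover counting error only, as do all intervals below, and no 2 of them overlap. The TAC-4w section stood 5.55-fold above sham (4.87 to 6.34), TAC-2w at 0.393 of sham (0.324 to 0.475) and TAC-6w at 0.664 of sham (0.562 to 0.784). At TAC-4w a UMI of Lcn2 was found in 59.3% of spots, against 7.80% to 10.9% in the other sections.

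Serpina3n, an inhibitor of serine proteases, had the same order. It was measured at 18.9 CPM in sham and at 5.48, 83.1 and 9.84 CPM after 2, 4 and 6 weeks of TAC. The ratio to sham was 0.290 (0.249 to 0.337), 4.40 (4.00 to 4.86) and 0.521 (0.458 to 0.592) in that order. The TAC-4w section also held its UMIs in the widest share of spots, 71.3% against 10.9% to 18.1% in the other sections.

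Saa3, a serum amyloid A made outside the liver, and Hp, the haemoglobin-binding protein haptoglobin, were sparse. Saa3 had 40 UMIs in the sham section and 19, 67 and 1 in the TAC sections by time. The TAC-4w level was 1.36-fold that of sham, with an interval (0.908 to 2.07) that spans no difference. Hp had 22, 4, 84 and 41 UMIs in the same order, which put TAC-4w 3.11-fold above sham (1.92 to 5.22), TAC-2w at 0.0969 of sham (0.0243 to 0.285) and TAC-6w at sham's level (1.00, 0.584 to 1.77). Hp was seen in 5.54% of spots at most, at TAC-4w.

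Cp, the copper-carrying ferroxidase ceruloplasmin, was present more widely in all sections. Its level was 41.0 CPM in sham and 32.2, 89.3 and 37.6 CPM in the TAC sections by time, and its UMIs were found in 39.4% to 81.4% of spots. The TAC-4w level was 2.18-fold that of sham (2.03 to 2.34), and 1.82-fold when mitochondrial and ribosomal RNA-like transcripts were left out of the totals.

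Mt1 was found in nearly every spot, 96.7% in sham and 99.1% to 99.9% in the TAC sections. Sham had 781 CPM of it, and the TAC sections had 1146, 2501 and 1008 CPM by time. Mt2 was measured at 109.5, 118, 448 and 208 CPM in the same order and in 64.4%, 87.0%, 98.6% and 87.2% of spots. Unlike the acute-phase genes, both metallothioneins were above sham in all TAC sections, Mt1 by 1.47-fold, 3.2-fold and 1.29-fold and Mt2 by 1.07-fold, 4.09-fold and 1.90-fold. The median ratio over all genes tested was 1.03, 1.16 and 1.24 in the same order, so the 1.29-fold of Mt1 at TAC-6w lay near that median. The Mt2 ratio at TAC-2w fell below 1, to 0.918, when mitochondrial and ribosomal RNA-like transcripts were left out of the totals.

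**Figure D1:**
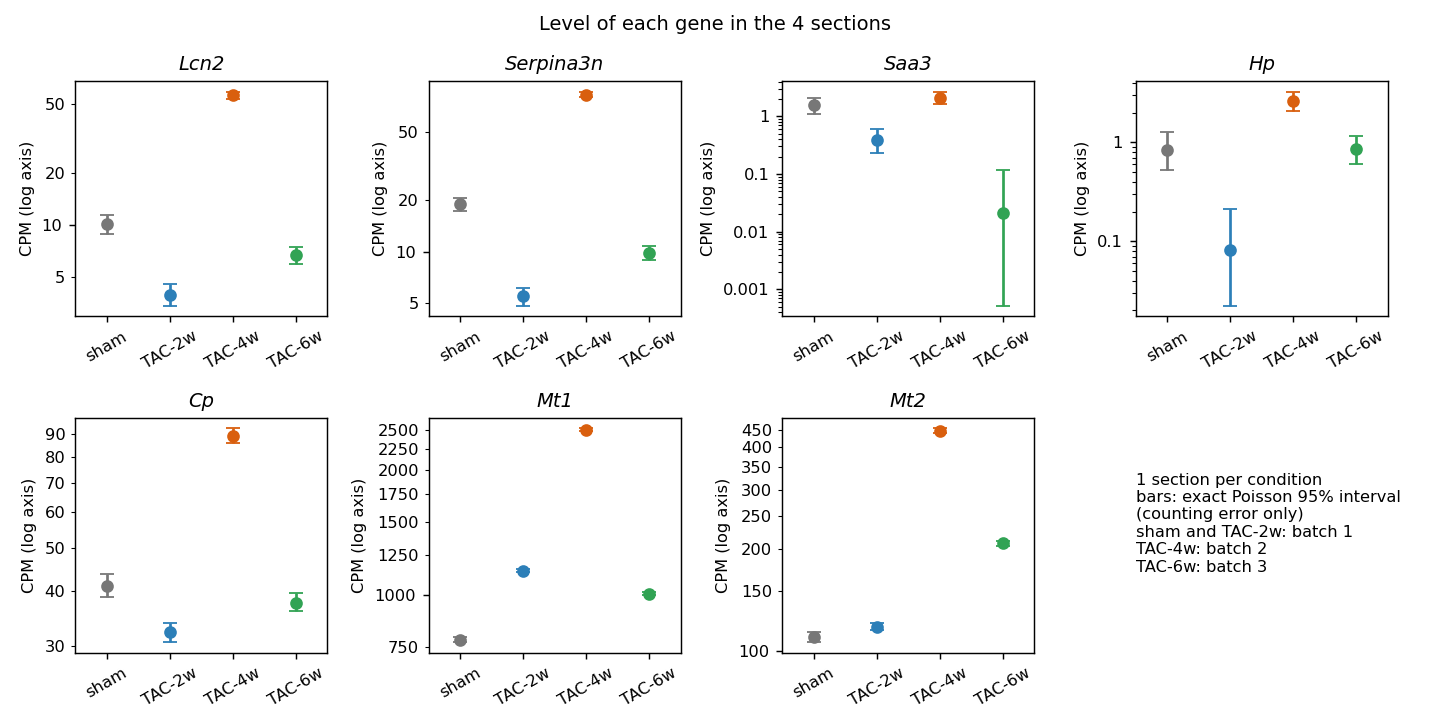
Level of each of the 7 genes in the 4 sections, as CPM on a log axis, with 1 point per section and exact Poisson 95% intervals as bars. TAC-4w is the highest point in all 7 panels, and TAC-2w lies below sham for Lcn2, Serpina3n, Saa3, Hp and Cp but not for Mt1 and Mt2.

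At TAC-4w 6 of the 7 genes were at least 2-fold above sham, Saa3 being the exception, where 5.28% of the 11205 genes with at least 50 UMIs in either section were. None was at TAC-2w or TAC-6w, against 0.657% and 4.66% of genes. At TAC-2w Lcn2 and Serpina3n were at or below 0.5 of sham, 2 of the 5 members that reach 50 UMIs, as 0.587% of genes were. Saa3 and Hp, which do not reach 50 UMIs in either of these sections and so stand outside that share, were also at or below 0.5. At TAC-6w none of the 5 members that reach 50 UMIs was, against 0.251% of genes, and Saa3 was, on 1 and 40 UMIs. At TAC-4w none was, against 0.776% of genes. Because the members were grouped for their levels in these sections, nothing is read from these counts. Between TAC sections, TAC-4w stood 14.1-fold above TAC-2w for Lcn2, 15.2-fold for Serpina3n, 2.78-fold for Cp, 2.18-fold for Mt1 and 3.81-fold for Mt2. At TAC-6w the levels were 0.120 of those at TAC-4w for Lcn2 and 0.118 for Serpina3n, but 0.421 for Cp, 0.403 for Mt1 and 0.465 for Mt2. Each TAC section is compared with the same sham section, and the TAC-2w section alone shares a batch with it.

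Other cell content moved with the section as well. The 6 neutrophil markers (S100a8, S100a9, Csf3r, Cxcr2, Retnlg and Mmp9) summed to 30.7, 6.48, 89.2 and 16.7 CPM from sham to TAC-6w, the same order of sections as for Lcn2. Neutrophil genes are set beside Lcn2 and Hp below, and the part of neutrophils in the section levels was not tested. The 6 fibroblast markers summed to 709.8, 712, 898 and 1189 CPM and the 6 macrophage markers to 140.2, 127, 262 and 198 CPM. A set of 6 genes of stressed ventricular muscle, Nppa among them, stood at 642, 639.6, 12175 and 5518 CPM. In a section, more cells of a type and more RNA per cell cannot be told apart.

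The spread over the tissue was measured by putting each UMI at random into 1 of 2 sets, choosing the 10% of spots with the highest level in the first set and reading the level in the second set. This keeps counting noise from looking focal. Where too few spots had a UMI of the gene in the first set, the spots with the most UMIs of all genes filled the 10%. Lcn2 in sham, for example, had a UMI in 162 spots, and 168 were chosen. The ratios of sparse genes are therefore not on a par with those of abundant genes. In sham the chosen spots held 28.7 CPM of Lcn2 against 6.05 CPM in the others, a ratio of 4.75, and the ratio for Serpina3n was 4.07. The median over 6485 genes was 1.31. At TAC-4w the ratio was 2.78 for Lcn2 (134 against 48.2 CPM), 3.02 for Serpina3n and 2.80 for Mt2, with a median of 1.25 over 7718 genes. At TAC-4w the spots outside the chosen 10% thus held more Lcn2 per UMI than the chosen sham spots did. With 5% of spots chosen they did not (50.5 against 65.4 CPM). Cp and Mt1 were spread more evenly, with ratios of 1.3 to 1.53 for Cp and 1.2 to 1.62 for Mt1 in the 4 sections. In sham, at TAC-4w and at TAC-6w, 5 members had at least 200 UMIs each, and at TAC-2w 4 did. At least 20% of held-out UMIs lay in the chosen spots for 2, 3 and 2 of the 5 and for 1 of the 4. The chosen spots held unlike shares of all UMIs, such as 17.8% for Lcn2 in sham and 8.67% for Mt2 at TAC-4w. The share of all genes past the 20% cut was not counted, so nothing is read from these counts. The Mt2 ratio was 2.53 in sham, where the chosen spots held 18.6% of its held-out UMIs, under the 20% cut. At TAC-4w, with 21.0%, Mt2 passed that cut. At TAC-6w its ratio was 1.38, beside a median of 1.23 over genes.

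A second measure, Moran's I, compared each spot with its neighbours, with 0 standing for no likeness. It was 0.175 for Lcn2 in sham, 0.224 at TAC-4w and 0.0105 after 6 weeks. For Serpina3n it was 0.204, 0.0491, 0.244 and 0.0458 from sham to TAC-6w. The metallothioneins were the most alike between neighbours at TAC-4w, with 0.378 for Mt1 and 0.375 for Mt2, where the median over genes was 0.0130. They had 79903 and 14310 UMIs there, while genes were compared from 200 UMIs up. Counting noise lowers the measure for sparse genes, so the distance from the median is not read. Mt1 thus differed smoothly over the tissue, and its held-out ratio of 1.62 at TAC-4w was above that of 88.4% of genes. At the rim of the tissue, Lcn2 stood 2.20-fold (1.48 to 3.19) above the interior at TAC-2w and 2.67-fold (2.03 to 3.49) at TAC-6w, while in sham and at TAC-4w the intervals of 0.984 to 1.90 and 0.990 to 1.32 spanned 1. Serpina3n at TAC-4w was lower at the rim, at 0.716 of the interior (0.619 to 0.825).

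**Figure D2:**
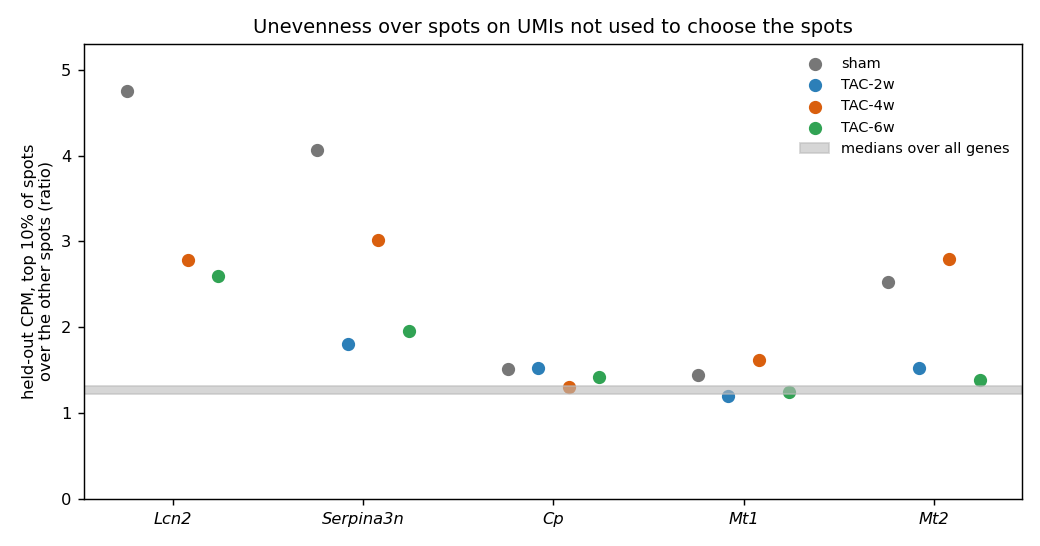
Ratio of the held-out level in the 10% of spots chosen on the other UMIs to that in the remaining spots, for genes with at least 200 UMIs in the section, 1 point per gene and section, with the range of the medians over all genes as a grey band. Lcn2 and Serpina3n in sham sit at 4.75 and 4.07, and Cp and Mt1 sit at or below 1.62 in all sections.

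The maps showed where these spots lay. Adjoining spots in the top 3% for Lcn2, summed with their neighbours, formed a patch of 18 spots in sham and one of 30 spots at TAC-4w, a choice made after the data were seen. Since Lcn2 chose the spots, its own level there is a description. The sham patch held 1.90% of the section's UMIs and 34.0% of its Lcn2 UMIs (180.5 CPM against 6.78 CPM elsewhere). It also held 23 of the 40 Saa3 UMIs, at 46.6 CPM against 0.667 CPM. Serpina3n stood at 160.2 CPM against 16.2 CPM, a ratio of 9.92 (7.69 to 12.6), and Mt2 at 604 CPM against 99.9 CPM, a ratio of 6.05 (5.34 to 6.82). Mt1 was 2.44-fold (2.28 to 2.61) and Cp 1.65-fold (1.13 to 2.33) higher there.

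Genes of immune cells led the sham patch. Among other genes, Ccl1 (205 against 0.667 CPM), Cxcl10 (79.1 against 0.510 CPM) and Cxcl9 (199 against 3.33 CPM), all chemokines, and Cd52, a lymphocyte surface protein (118 against 6.20 CPM), were the furthest above the rest. The class II antigen-presenting genes H2-Eb1, H2-Ab1 and H2-Aa were 5.68-fold to 6.25-fold higher. T cell markers stood 11.8-fold (6.79 to 19.7) and NK cell markers 22.2-fold (10.3 to 45.0) above the rest, whereas neutrophil markers were at 0.457 (0.183 to 0.946), fibroblast markers at 0.962 and cardiomyocyte markers at 0.985 of it. The part of this patch in the sham level was measured by leaving it out. With it and the groups of spots found in the same way in the other sections left out, sham Lcn2 was 6.78 CPM, and the ratio to sham became 0.578 at TAC-2w, 7.36 after 4 weeks and 0.981 (0.813 to 1.19) after 6 weeks. Saa3 became 0.585 (0.288 to 1.2) at TAC-2w and 3.14 (1.82 to 5.71) at TAC-4w. All 7 genes were then at least 2-fold above sham at TAC-4w, and 2 in place of 4 were at or below 0.5 of sham at TAC-2w. The spots left out were chosen for Lcn2. They held 34.0% of Lcn2 and 57.5% of Saa3 UMIs in sham, against 13.2% and 2.99% at TAC-4w, so leaving them out lowers sham more. The share of all genes past 2-fold without these spots was not counted, and nothing is read from these counts.

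The patch at TAC-4w differed in its other genes. It held 275 CPM of Lcn2 against 49.9 CPM elsewhere, 236 against 78.9 CPM of Serpina3n, 5546 against 2418 CPM of Mt1 and 1872 against 409 CPM of Mt2. Saa3 was not detectably higher there at this depth (2 of 67 UMIs, ratio 1.12, 0.133 to 4.21). Its leading other genes were Thbs1, a matricellular protein (10.7-fold), the calcineurin regulator Rcan1 (6.74-fold) and the protease inhibitor Timp1 (6.57-fold), with the haem-degrading enzyme Hmox1 (4.56-fold) and the acute-phase gene Lrg1 (3.58-fold) further down. Neutrophil markers were at 0.970 (0.759 to 1.22) and fibroblast markers at 1.12 (1.05 to 1.2) of the rest. Markers of macrophages (1.47, 1.31 to 1.64), monocytes (1.79, 1.12 to 2.72) and NK cells (2.05, 1.07 to 3.57) were higher there. In the sham patch these 3 stood at 1.43, 7.61 and 22.2. The interval of T cell markers at TAC-4w spanned 1 (1.66, 0.896 to 2.83). Cp was 1.36-fold (1.11 to 1.66) higher there. Besides Lcn2, which chose the spots, Serpina3n, Cp, Mt1 and Mt2 were higher in both patches. Among other genes, so were Fgl2 (7.53-fold in sham and 3.35-fold at TAC-4w) and the chemokine Ccl21a (6.39-fold and 3.98-fold). Hp was higher in the sham patch on 3 UMIs (8.17, 1.55 to 27.7), and its interval at TAC-4w spanned 1 (2.80, 0.997 to 6.37). Ccl1, Cxcl10 and Cxcl9, which led in sham, were not among the 15 leading genes with at least 30 UMIs in the patch at TAC-4w. The groups of adjoining spots found in the same way at TAC-2w and TAC-6w had 2 Lcn2 UMIs each in spots of few UMIs and were not taken as patches.

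**Figure D3:**
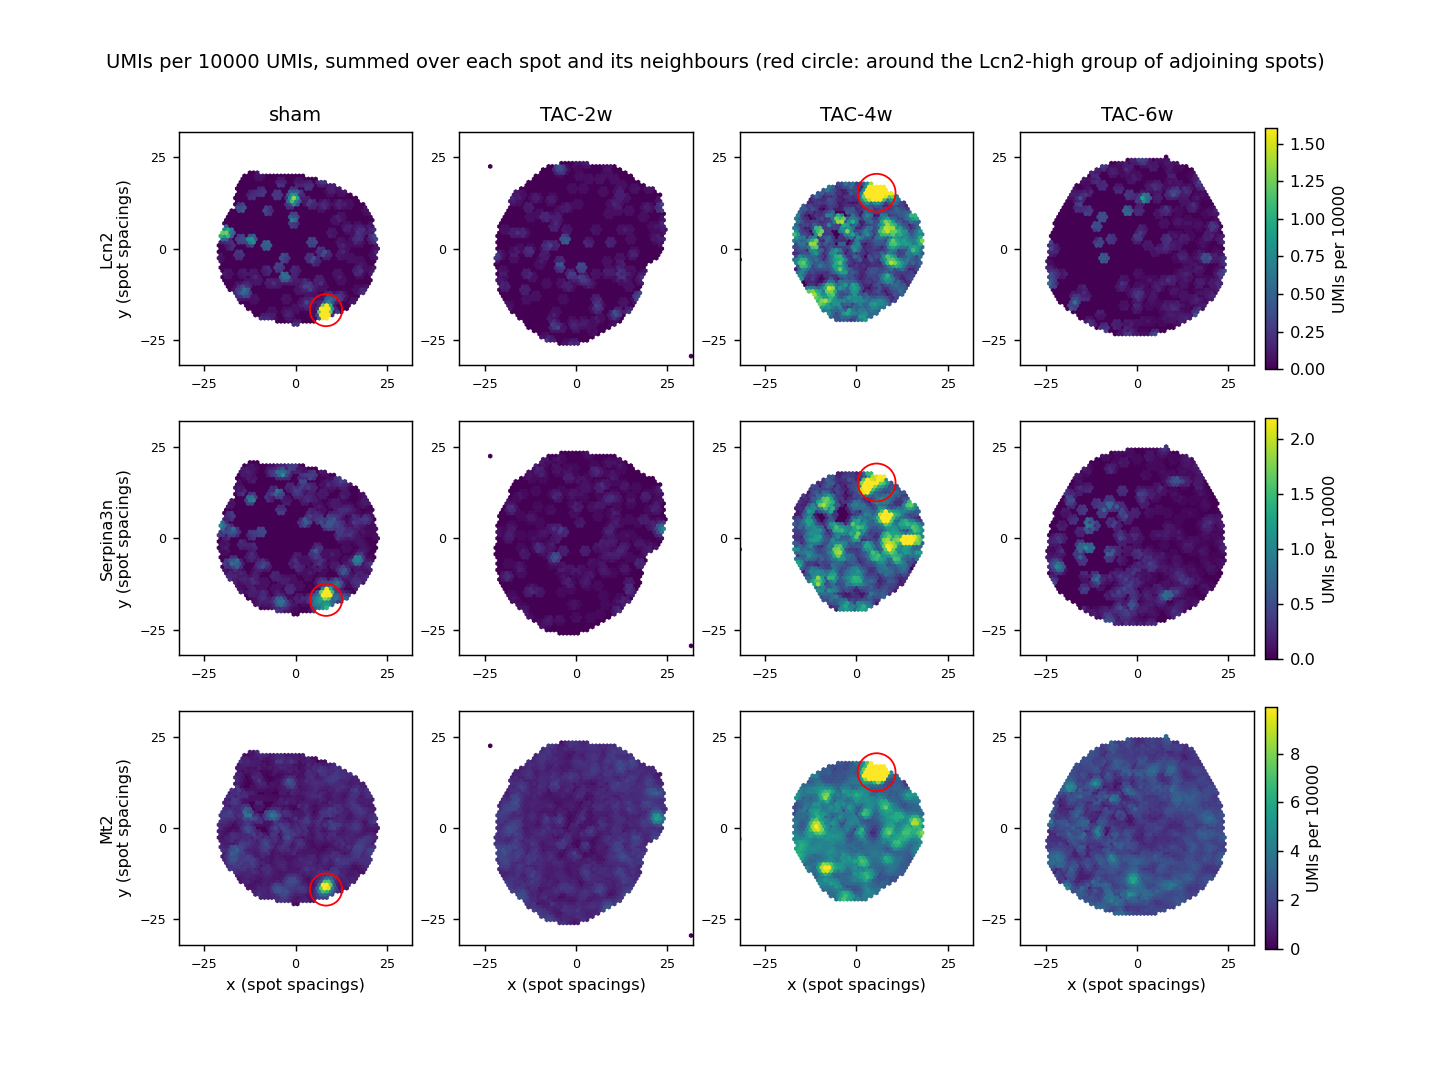
Maps of Lcn2, Serpina3n and Mt2 over the 4 sections, with positions in spot spacings and colour as UMIs per 10000 summed over a spot and its neighbours, on 1 colour scale per gene, and a red circle around the Lcn2-high patch in sham and at TAC-4w. The TAC-4w maps are bright beyond the circle for all 3 genes, whereas in sham the circle holds 34.0% of the Lcn2 UMIs.

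Where Lcn2 was high at TAC-4w, Serpina3n, Mt1 and Mt2 were too. In the 10% of spots highest for Lcn2, Mt2 stood at 914 CPM against 403 CPM and Serpina3n at 164 CPM against 75.4 CPM. Mt1 was 1.43-fold (1.40 to 1.46) higher there. The intervals of Cp (1.06, 0.931 to 1.21), Hp (1.25, 0.552 to 2.51) and Saa3 (0.664, 0.175 to 1.79) spanned 1. In sham the ratios were 2.80 for Serpina3n, 1.24 for Mt1, 1.70 for Mt2, 1.34 for Cp and 10.3 for Saa3, and the interval of Hp spanned 1 (0.978, 0.185 to 3.32). Serpina3n followed fibroblast-rich tissue in every section. In the 5% of spots highest for fibroblast markers it stood 3.79-fold above the rest in sham and 3.68-fold, 2.79-fold and 2.69-fold above it in the TAC sections by time. For Lcn2 the same ratios were 1.18, 1.87, 1.29 and 2.16. Mt2 stood 2.31-fold (2.06 to 2.58) higher in the sham spots richest in the ventricular stress genes, and 1.15-fold to 1.25-fold in those of the TAC sections.

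Lcn2 and Hp are stored in neutrophils, so both were set beside the neutrophil genes S100a8 and S100a9. In the sections there were 39.8, 77.8, 73.8 and 49.8 Lcn2 UMIs per 100 UMIs of S100a8 and S100a9 from sham to TAC-6w. In neutrophil-like cells of the libraries the same figure was 3.2, 3.44, 3.79 and 4.50, and in their cluster richest in Lcn2 it was 6.17, 4.62, 4.98 and 5.51. The figure was thus higher in the section than in either set of neutrophil-like cells in all 4 conditions, and the sources of the Lcn2 of the sections were not tested. For Hp the section figure was 3.34, 1.61, 3.47 and 6.32, on 4 to 84 UMIs, against 1.24, 1.06, 1.12 and 0.888 in neutrophil-like cells. The 10% of spots richest in neutrophil markers held 65.6% of those markers' UMIs at TAC-4w, but 10.4% of Lcn2, 8.29% of Serpina3n and 36.9% of Hp. Leaving those spots out of every section kept Lcn2 at 5.32-fold above sham (4.65 to 6.12) and moved Hp to 2.52-fold (1.43 to 4.64). The Lcn2 level at TAC-4w was as high outside the neutrophil-rich spots as over the whole section, at 54.6 against 55.9 CPM.

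In the libraries of dissociated heart, neutrophil-like cells held the highest level of Lcn2 in all 4 conditions, at 4266, 5803, 7668 and 9068 CPM from sham to TAC-6w. Most of it lay in a small cluster led by Ltf, Ngp and Camp, genes of the granules of developing neutrophils, with Lcn2 itself among its 10 leading genes, which had 13892 to 17268 CPM on 10, 12, 227 and 31 cells. The larger neutrophil-like cluster, led by Acod1, Stfa2l1 and Il1r2, had 1327, 1228, 2164 and 1936 CPM. Within a batch, the class stood 2.13-fold (2.01 to 2.25) above sham at TAC-6w, where 6.18% of the genes tested in the class were at least 2-fold higher. The first cluster had 31 of 193 cells of the class at TAC-6w and 10 of 145 in sham, and its own level was 17268 CPM and 17081 CPM. The TAC-4w library held 1254 neutrophil-like cells against 70 to 193 in the others, and they carried 94.1% of its Lcn2 UMIs. Lcn2 in that whole library was 1260.3 CPM against 38.5 CPM in sham. Neutrophil-like cells made up 19.2% of the TAC-4w cells and 1.82% of those in sham. Other classes differed too, with B cell-like cells at 37.2% and 2.91%, platelet-like cells at 8.45% and 0.665% and fibroblast-like cells at 6.60% and 56.3%. The shares of cells in a library are therefore not read as those of the tissue. The 11 classes with at least 30 cells in both libraries were also weighted by their shares of UMIs, not of cells, in sham. The TAC-4w level was then 125 CPM. Dividing cell-like cells came next, at 149, 219 and 1659 CPM from sham to TAC-4w and with 0 UMIs in 42 cells at TAC-6w, and at TAC-2w 484 of their 485 UMIs were in 1 cell.

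Outside neutrophils, Lcn2 was found in an endothelial cell-like cluster led by H19, Npr3 and Gpm6a, of which Npr3 marks the lining of the heart chambers. It held 104 CPM in sham (190 cells) and 245 CPM at TAC-2w (126 cells). At TAC-4w the cluster had 10 cells, and 1 of them held 63 of its 79 UMIs. In endothelial cell-like cells as a whole there were 716 Lcn2 UMIs per 100 of S100a8 and S100a9 in sham and 1428 at TAC-2w, far above the ratio of neutrophil-like cells in the same libraries, and 13.4 (11.3 to 15.8) at TAC-4w. Fibroblast-like cells had 7.79, 3.96, 22.5 and 7.85 CPM of Lcn2, and a UMI in 3.08%, 2.79%, 12.3% and 1.88% of cells. Their Lcn2 UMIs per 100 of S100a8 and S100a9 were 137 in sham, 52.7 after 2 weeks and 15.6 after 6 weeks, but 3.81 (3.21 to 4.49) at TAC-4w, where neutrophil-like cells had 3.79 and B cell-like cells, which should lack both, had 4.10 (3.47 to 4.81). B cell-like cells of that library had a Lcn2 UMI in 5.64% of cells at a median of 4348.5 UMIs, against 12.3% of fibroblast-like cells at 13948 UMIs. The Lcn2 of fibroblast-like cells at TAC-4w, 2.88-fold above sham, thus stood at the proportion found in neutrophil-like and B cell-like cells of the same library. Of its 141 UMIs 56 were in 1 cell, which also held 961 UMIs of S100a8 and S100a9. Without the cell with the most Lcn2 UMIs in each library, an alternative added after the data were seen, the ratio to sham was 1.92 (1.5 to 2.44) and the proportion 3.10 per 100. The part of free RNA or doublets in these values was not tested. Cardiomyocyte-like cells had 0 Lcn2 UMIs in 107 sham cells, which allows a share of up to 2.80% of cells with a UMI. This holds at their depth, a median of 2054 UMIs against 10566 in fibroblast-like cells of sham, where a low level can go unseen. With 23 cardiomyocyte-like cells at TAC-4w, the limit was 13%. Which cells held the Lcn2 of the TAC-4w section was not settled by the libraries.

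In the libraries, Serpina3n came almost wholly from fibroblast-like cells. They held 97.7%, 98.5%, 97.7% and 99.2% of its UMIs from sham to TAC-6w, at 131, 124, 109 and 200.2 CPM, and a UMI was found in 43.5% to 56.1% of them. In macrophage-like cells the level was 0.370 to 1.63 CPM. With a mitochondrial limit of 5% in place of 15%, 2 of the clusters took another name and fibroblast-like cells were highest in 1 of 4 libraries. Within the class the order of clusters changed. In sham the cluster led by Gdf10, Rbp4 and Aox3 stood at 158 CPM, above the one led by Wif1, Chad and Ucma, of which Chad and Ucma are known from cartilage, at 88.1 CPM. At TAC-4w that latter cluster was at 328 CPM (287 to 374) on 40 cells, and the former at 86.7 CPM (78.1 to 96.0) on 301 cells. The fibroblast-like level did not follow the section, with 0.836 of sham (0.772 to 0.905) at TAC-4w and 1.53-fold above it (1.47 to 1.59) at TAC-6w, the library that shares its batch with sham. With 23 cardiomyocyte-like cells in the TAC-4w library, the cells that held the Serpina3n of the TAC-4w section were not settled.

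Hp was highest in neutrophil-like cells (1659, 1795, 2276 and 1787 CPM), with both neutrophil-like clusters at like levels, and next in monocyte-like cells (709, 609, 1381 and 848 CPM). It was found in most cells of these classes, in 83.9% to 95.7% of neutrophil-like and 60% to 89.8% of monocyte-like cells, while Lcn2 was found in 62.8% to 81.1% of neutrophil-like cells. In sham 53.9% of its UMIs came from fibroblast-like cells, although only 2.56% of them had one. Fibroblast-like Hp per 100 UMIs of S100a8 and S100a9 was 415, 164, 4.84 and 22.0 from sham to TAC-6w. Each was above the figure of neutrophil-like cells in the same library. At TAC-4w that figure was 1.12, and B cell-like (2.24, 1.78 to 2.78), platelet-like (3.44) and macrophage-like cells (4.19) were also above it. The intervals of platelet-like and macrophage-like cells overlapped that of fibroblast-like cells. Those of T cell-like (1.21), NK cell-like (2.06) and endothelial cell-like cells (1.56) held 1.12. The part of free RNA in the Hp values was not tested.

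Saa3 lay in a handful of cells. A UMI was found in 33, 19, 19 and 10 cells from sham to TAC-6w, and the cell with the most held 29.1%, 56.1%, 20.0% and 60.7% of all Saa3 UMIs. Fibroblast-like cells held 96.3% to 99.2% of them in sham, at TAC-2w and at TAC-6w. At TAC-4w they held 3 UMIs, while neutrophil-like cells held 54 and macrophage-like cells 39. A level per class therefore describes few cells for this gene.

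Cp was shared by fibroblast-like cells, at 373, 444, 319 and 356 CPM with a UMI in 74.2% to 87.2% of cells, and by the endothelial cell-like cluster led by H19, Npr3 and Gpm6a. This cluster had 642, 596, 598 and 474 CPM from sham to TAC-6w, on 190, 126, 10 and 24 cells. Endothelial cell-like cells as a whole had 439.6, 301, 61.3 and 109 CPM. The other endothelial cell-like cluster, led by Depp1, Stmn2 and Rbp7, had 106 CPM in sham. Macrophage-like cells had 67.3, 71.5, 10.1 and 40 CPM. The fibroblast-like cluster led by Wif1, Chad and Ucma, high in Serpina3n, was low in Cp at 77.4 to 137 CPM.

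The metallothioneins were the most widely shared of the 7 genes. Fibroblast-like cells held 2881, 2319.6, 3027 and 3666 CPM of Mt1 and 992, 658, 1124 and 1284 CPM of Mt2, and most UMIs of both. In sham mural cell-like cells (3130.4 CPM) and cardiomyocyte-like cells (2246 CPM) also had Mt1. Macrophage-like cells had 1455, 1377, 698 and 4343 CPM of Mt1 and 150.2, 111, 38.4 and 374 CPM of Mt2. At TAC-6w they stood 2.99-fold (2.93 to 3.05) above sham for Mt1 and 2.49-fold (2.33 to 2.67) for Mt2, within a batch, where 1.02% of the genes tested in the class were at least 2-fold above sham. In fibroblast-like cells of the same 2 libraries the ratios were 1.27 and 1.29. Lymphocyte-like cells were low, at 81.9 to 114 CPM of Mt1 in sham.

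The proportion of the 2 metallothioneins, as Mt1 UMIs per Mt2 UMI, differed between classes. It was 2.90, 3.53, 2.69 and 2.86 in fibroblast-like cells and 9.68, 12.4, 18.2 and 11.6 in macrophage-like cells. In cardiomyocyte-like cells it was 17.1 (13 to 23.0) in sham and 11.5 (8.77 to 15.3) at TAC-2w. The sections lay between, at 7.13 (6.85 to 7.42), 9.75 (9.49 to 10.0), 5.58 (5.49 to 5.68) and 4.84 (4.74 to 4.95) from sham to TAC-6w. At TAC-4w and TAC-6w the tissue thus held more Mt2 for its Mt1 than sham did.

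**Figure D4:**
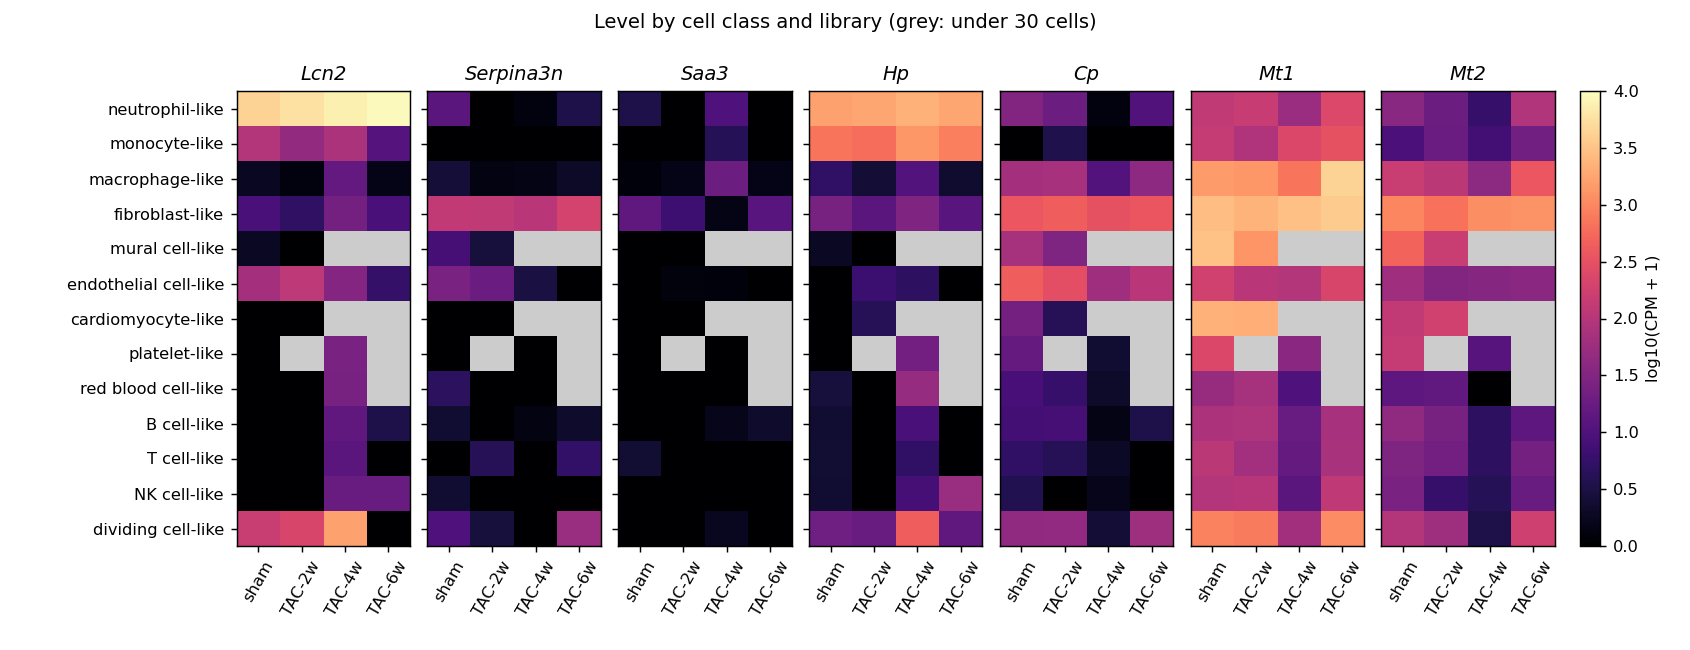
Level of each gene by cell class and library, as log10 of CPM plus 1, with grey where a class had under 30 cells in a library. Lcn2 and Hp are brightest in neutrophil-like cells, Serpina3n is brightest in fibroblast-like cells, and Mt1 is bright in fibroblast-like, macrophage-like, mural cell-like and cardiomyocyte-like cells.

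Set against sham within fibroblast-like cells, only Lcn2 was at least 2-fold higher at TAC-4w, where 5.53% of the 12415 genes tested were, and without its highest cell it was not (1.92). None of the 7 was at TAC-2w or TAC-6w, against 0.456% and 2.05% of genes. At TAC-4w the section ratios were 2.18 for Cp, 3.2 for Mt1 and 4.09 for Mt2, and those of fibroblast-like cells were 0.856, 1.05 and 1.13. The TAC-4w library had 431 fibroblast-like cells, 301 of them in the cluster led by Gdf10, Rbp4 and Aox3, whereas at TAC-6w 2139 of 2876 were in the cluster led by Stmn4, Pla1a and Ret and sham had 2248 and 2075 in these clusters. At a resolution of 0.5, a fibroblast-like cluster led by Gdf10, Tnfrsf11b and Cpxm2 held 210 cells at TAC-4w, 123 in sham and 4 at TAC-6w. The ratios within fibroblast-like cells thus compare unlike mixes of clusters, and the part of this was not tested. The sham section is of batch 1 and the sham library of batch 3, so each ratio rests on other batches in the sections than in the libraries, and the part of the batch was not tested.

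**Figure D5:**
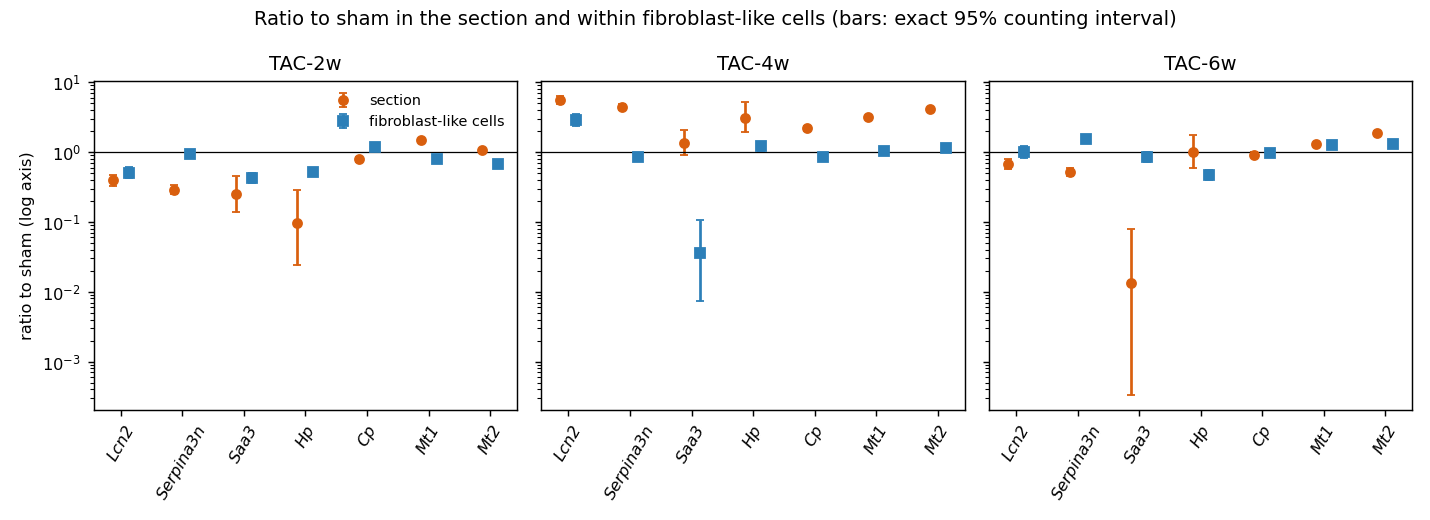
Ratio to sham of each gene in the section (circles) and within fibroblast-like cells (squares), on a log axis with exact 95% counting intervals and a line at 1. At TAC-4w the section ratios of Serpina3n, Cp, Mt1 and Mt2 lie between 2.18 and 4.40 and those of fibroblast-like cells between 0.836 and 1.13.

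Of 70 other genes of these pathways, 44 had at least 50 UMIs in the TAC-4w or sham section, and 6 were at least 2-fold above sham at TAC-4w. These were Serpina3g (4.86-fold), another gene of the Serpina3 cluster that can share reads with its neighbours, Hmox1 (2.60-fold), the zinc importer Slc39a8 (2.40-fold), Socs3, the feedback inhibitor of STAT3 signalling (2.29-fold, 1.72 to 3.09), the glucocorticoid target Fkbp5 (2.23-fold) and Lrg1 (2.08-fold). Of the genes tested at TAC-2w, the transferrin receptor Tfrc alone was (4.36-fold, 3.81 to 5.01), and at TAC-6w Tfrc (3.05-fold) and Slc39a8 (2.36-fold) were. Over all genes tested the shares at least 2-fold above were 5.28%, 0.657% and 4.66% at these times. None of the 41, 44 and 43 pathway genes tested from TAC-2w to TAC-6w was at or below 0.5 of sham. Some of the untested genes were, such as Itih4, at 0.267 (0.150 to 0.460) after 2 weeks on 21 and 42 UMIs. None of the 7 cytokine receptors tested passed in either direction, and of 7 inducing cytokines 1 had enough UMIs to be tested. In the libraries, where cytokines were seen, Il6 was highest in fibroblast-like cells in sham (77.2 CPM), at TAC-2w (85.3 CPM) and at TAC-6w (45.2 CPM), and in macrophage-like cells at TAC-4w (98.4 CPM). Il1b was highest in neutrophil-like cells in all 4 libraries, at 4235 to 10544 CPM.

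The genes most like each member were found over 45 sums of a class in a library, by Pearson's r of log2 of CPM plus 1. The class levels above come from the same sums, so r is not separate support for the sources. Sums of the same library share its depth and free RNA, so r is a description. For Lcn2 the most alike genes were Wfdc21 and S100a8 (r = 0.91 each) and S100a9 (0.90). S100a8 and S100a9 were also among the markers that named the neutrophil-like class. For Hp the most alike genes were Trem1 (0.93), Mcemp1 and Trem3 (0.92 each), and for Serpina3n Olfml1, Srpx2 and Svep1 (0.92 each). For Cp they were Lamb1 (0.92), Pmp22 and Fgfr1 (0.91 each). Mt1 and Mt2 were each other's nearest gene (0.91), followed by Snx24 and Etv1 (0.84 each) for Mt1 and by Pmp22 (0.87) and Tbx20 (0.85) for Mt2. For Saa3 no gene passed 0.63 (Fads6, Scin and Serpina3c led). Over spots the mean r of the 4 sections was at most 0.23, again between Mt1 and Mt2. Serpina3n was nearest to the matrix and stromal genes Gsn (0.22), Mgp (0.21) and Serping1 (0.20), and Cp to Gsn (0.15), Dcn (0.13) and Mgp (0.12). The genes nearest to Lcn2 over spots were Mt2 (0.12), Ankrd1 (0.11) and Lrg1 (0.10), among 3313 genes with at least 500 UMIs in every section. S100a8 and S100a9 did not reach 500 UMIs in every section and were not compared. Lrg1 was highest in neutrophil-like cells in all 4 libraries, at 558 to 732 CPM.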

How the data were processed

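The deposited files hold the UMI counts per gene and spot or barcode from the authors' runs of Space Ranger (sections) and of Cell Ranger (libraries) on mm10 (GRCm38), and they are not normalized. The file headers name Space Ranger 1.2.0 and Cell Ranger 6.0.0, the submitters' processing notes 1.3.1 and 7.0.0. Sections held the spots over tissue, which were not filtered. Barcodes passed with under 15% mitochondrial UMIs, between 500 and 30000 UMIs and between 200 and 6000 genes, the 3.2% with the highest Scrublet scores were removed as doublets, and the rest were clustered (Seurat 5.3.0, R 4.3.3; 3000 variable genes without the 7 members, 30 principal components, resolution 0.25) and named from fixed marker lists of 6 genes. A name ending in "-like" rests on those markers alone. Other steps ran in Python 3.11.15 (scanpy 1.11.5, pandas 2.3.3, scipy 1.17.1, numpy 2.4.6 and, for plots, matplotlib 3.10.9).

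Levels are summed UMIs per 1000000 (CPM) with exact Poisson 95% intervals, ratios have exact conditional binomial intervals and proportions Clopper-Pearson intervals. All of them cover counting error alone. Shares over all genes and counts of pathway genes used genes with at least 50 UMIs in either sample. Ratios of the 7 members are also given below that. With 1 section and 1 library per condition there was no replicate, and conditions were compared without a test or p-value. The members and gene lists were chosen with earlier results of these data known. Named were the 7 members, up to 6 other pathway genes per section past 2-fold by size of the ratio, the 3 genes most alike each member over spots and over classes, and, after their values were seen, the leading genes of the patches and Il6 and Il1b. The scripts were tested on simulated counts. Reference sequences and positions were taken from RefSeq tables of GRCm38.p6. Hp had no promoter entry.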

Additional observations from a re-analysis of the deposited data

Results flagged for a closer look

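Several members moved in opposite directions at different times after surgery. With 1 section and 1 library per condition, none of these differences was tested. In the sections, the ratio of Lcn2 to sham was 0.393, 5.55 and 0.664 after 2, 4 and 6 weeks of TAC. For Serpina3n it was 0.290, 4.40 and 0.521, for Cp 0.784, 2.18 and 0.916, and for Hp 0.0969 at TAC-2w and 3.11 at TAC-4w. TAC-2w is the time point whose section shares a batch with sham, and the other time points cannot be told apart from their batches.

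Within fibroblast-like cells the ratio of Lcn2 was 0.508 at TAC-2w and 2.88 at TAC-4w, and 1.92 at TAC-4w without the cell with the most Lcn2 UMIs in each library. Serpina3n stood at 0.946, 0.836 and 1.53 from TAC-2w to TAC-6w, Hp at 0.521, 1.21 and 0.471, Cp at 1.19, 0.856 and 0.955, Mt1 at 0.805, 1.05 and 1.27 and Mt2 at 0.663, 1.13 and 1.29. TAC-6w is the time point whose library shares a batch with sham. Serpina3n and Cp in these cells were on the other side of sham at TAC-4w than in the TAC-4w section.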

How the results depend on the processing

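Of 96 alternative values of the counts of members, 84 stayed within 1.5 times the main count. A count of 0 that stayed 0 is among these. The counts of 6 members at least 2-fold above sham at TAC-4w and of neutrophil-like cells as the highest class for Lcn2 in all 4 libraries were among the counts that did so. The count of 6 still changed within that limit. Cp fell to 1.82-fold without mitochondrial and ribosomal RNA-like transcripts, and Saa3 rose to 3.14-fold with the patch left out. At TAC-6w, where no member was at least 2-fold above sham in the sections, 1 was with spots thinned to 5000 UMIs, 1 with the largest Lcn2-high patch left out, 2 with the mean of spot CPM and 1 with a 1.5-fold threshold, Mt2 each time and Hp, under 50 UMIs, in the spot mean. The count at or below 0.5 of sham was taken here over all 7 members, also under 50 UMIs, with main values of 4 at TAC-2w and 1 at TAC-6w. It became 2 at TAC-2w with the patch left out, and after 6 weeks it was 2 with the mitochondrial and ribosomal RNA-like transcripts left out and 3 at 1.5-fold. The share of all genes was not counted in these settings, and nothing is read from these counts. The 1 gene at TAC-2w with at least 20% of its held-out UMIs in the chosen spots became 0 in interior spots alone. Fibroblast-like cells were highest for Serpina3n in 1 of 4 libraries with a mitochondrial limit of 5%, since 2 fibroblast clusters, led by Wif1 and Gdf10, then took the mural cell-like name. In fibroblast-like cells the 1 member at TAC-4w became 0 with cells thinned to 1000 UMIs, where Lcn2 fell under 50 UMIs, and 0 without the cell with the most UMIs of the gene, and at TAC-6w 1 member passed 1.5-fold. Of single ratios, 100 of 147 in the sections moved by less than their counting interval, and 45 by more, and in fibroblast-like cells 107 of 147 and 35. Among ratios whose own interval left out 1, those that turned were Mt2 at TAC-2w (0.918 without mitochondrial and ribosomal RNA-like transcripts) and Cp at TAC-6w (1.04 with spots thinned), and in fibroblast-like cells, at the 5% limit, Hp (0.392), Mt1 (0.541) and Mt2 (0.741) at TAC-4w and Saa3 (1.14) at TAC-6w, with Mt1 at TAC-4w at 0.998 in cells thinned to 1000 UMIs. Lcn2 at TAC-6w in these cells, whose interval spanned 1 at 1.01, was 0.539 at the 5% limit, and Lcn2 at TAC-4w was 4.86 in place of 2.88. The 2 renamed clusters held 36 and 203 TAC-4w cells, so fibroblast-like ratios at the 5% limit rest on other cells than the main ones. Mt1 UMIs of the class at TAC-4w were 3722 there, against 19000 in the main setting. The causes of the turned ratios were not tested. Leaving out the neutrophil-rich spots, the patch or the highest cell was chosen after the data were seen. No paired analysis was possible because each condition had 1 sample per assay and no result comes from a test.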
